A study of Homo sapiens with 12 samples.

Results

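The genes described here are 36 well-known genes of cell division, chosen by name: 16 that act in S phase, when DNA is copied, and 20 that act in G2 phase and mitosis, when chromosomes are prepared for and pulled into daughter cells. All 36 occur among the 43769 genes of the count table, and all 36 are among the 15828 genes that passed the filter on low counts. Their mRNA was measured by RNA sequencing in SK-N-DZ, a human neuroblastoma cell line with amplified MYCN, in 12 libraries that form 4 groups of 3 replicates. Group C, labelled genotype WT, received neither agent. Group D, labelled genotype shARID1A, received doxycycline over 4 days. Group I, labelled WT, received interferon gamma (IFNγ) over 24 hours, and group DI, labelled shARID1A, received both agents at those times. The methods of the study describe clonal lines selected with puromycin that carry a doxycycline-inducible short hairpin RNA against ARID1A, a subunit of the SWI/SNF chromatin remodeler. WT therefore marks cells in which the hairpin was not induced, and the hairpin vector was present in all 4 groups. The labels do not say which clone was sequenced, and no group received doxycycline without carrying the hairpin, so effects of the drug, of the hairpin and of lower ARID1A cannot be told apart.

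Between 16469832 and 21790869 counts fell on genes in each library, and 0.839 to 1.07% of them fell on the 36 genes. The lowest count of any of the 36 in any library was 90, so none was near the limit of detection. Levels are given below as counts per 1000000 counts (CPM) after TMM scaling, which corrects for library size and composition. ARID1A itself was at 197, 186 and 165 CPM in C and at 197, 159 and 158 CPM in D, groups that overlapped (log2 fold change −0.09, SE 0.11, edgeR adjusted p = 0.788). It was at 192, 203 and 194 CPM in I and at 151, 133 and 148 CPM in DI, groups that did not overlap (−0.44, SE 0.11, edgeR adjusted p = 0.115, or 0.0111 with the replicate number as a block). Because the mRNA in these libraries did not set D apart from C, the groups are named by treatment throughout. For its SK-N-DZ hairpin cells the paper reports lower ARID1A mRNA by quantitative PCR and lower ARID1A protein by Western blot. Protein was not measured here. Of the markers of adrenergic neuroblastoma, all 9 were present in all 12 libraries and their summed level ran from 4220 to 5580 CPM, although TH was as low as 0.695 CPM. The summed level of 8 markers of other cells ran from 5.8 to 8.84 CPM in C and 7.41 to 12.3 CPM in D, and with IFNγ from 6.92 to 26.5 CPM (I) and 12.3 to 14.1 CPM (DI), with PECAM1 at 0 in every library, and the part of such cells in the results was not tested.

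Cell cycle genes are switched on in waves. Before and during S phase, E2F transcription factors released from the retinoblastoma proteins turn on the genes for licensing and firing replication origins and for making nucleotides. In G2, the MuvB complex with B-MYB and FOXM1 turns on the mitotic genes, through promoter elements called CHR (cell cycle genes homology region) and through CCAAT boxes bound by NF-Y, and the anaphase-promoting complex then marks several of their proteins for destruction as mitosis ends. Neuroblastoma with amplified MYCN is known for rapid division, and all 36 genes were detected in every library.

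The promoters were searched for these elements. RefSeq promoters (build GRCh38.p14, from 250 bases before to 50 bases after the transcription start) were found for 29 of the 36 genes, 13 of S phase and 16 of G2 and M, and not for MCM4, MCM5, CCNE2, AURKA, TPX2, BIRC5 and UBE2C. Each was searched on both strands for the CCAAT box, for the CHR letters TTTGAA and TTCGAA, and for the E2F letters TTTGGCGC, TTTCGCGC, TTCCCGCC and GCGGGAAA. Some of these E2F words overlap each other when they occur together, and TTCGAA reads the same on both strands. CHR letters occurred in 11 of the 16 G2 and M genes (68.8%), in 2 of the 13 S phase genes (15.4%) and in 19.5% of the 27305 genes with a promoter. E2F letters occurred in 10 of the 13 S phase genes (76.9%), in 1 of the 16 G2 and M genes (6.25%) and in 6.03% of all genes. CCAAT occurred in 14 of 16 (87.5%), 9 of 13 (69.2%) and 39.7%, in the same order as for CHR. The lines below give the 150 bases before the start for 4 mitotic genes and 3 origin genes described further below, written 5′ to 3′ on the strand of the gene. Capitals mark every searched word that lies wholly within these bases, as written or as its reverse complement.
BUB1B (chr15:40160919-40161068, plus strand): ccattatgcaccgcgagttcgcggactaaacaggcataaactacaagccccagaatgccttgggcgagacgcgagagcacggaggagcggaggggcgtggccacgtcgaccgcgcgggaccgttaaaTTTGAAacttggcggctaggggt
CCNB2 (chr15:59104996-59105145, plus strand): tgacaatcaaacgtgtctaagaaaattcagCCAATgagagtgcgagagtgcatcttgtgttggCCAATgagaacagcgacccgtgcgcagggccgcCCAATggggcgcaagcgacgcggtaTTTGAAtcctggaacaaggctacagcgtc
CCNA2 (chr4:121823884-121824033, minus strand): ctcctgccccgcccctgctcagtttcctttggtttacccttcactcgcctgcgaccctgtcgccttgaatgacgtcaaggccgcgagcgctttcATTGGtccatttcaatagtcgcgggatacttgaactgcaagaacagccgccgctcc
MKI67 (chr10:128126424-128126573, minus strand): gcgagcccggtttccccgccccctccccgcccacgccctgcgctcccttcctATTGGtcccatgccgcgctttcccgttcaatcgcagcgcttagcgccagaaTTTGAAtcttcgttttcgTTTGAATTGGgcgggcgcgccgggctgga
MCM6 (chr2:135876444-135876593, minus strand): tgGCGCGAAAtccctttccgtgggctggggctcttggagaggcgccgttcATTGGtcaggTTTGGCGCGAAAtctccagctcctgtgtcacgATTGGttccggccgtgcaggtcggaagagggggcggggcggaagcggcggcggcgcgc
MCM3 (chr6:52284743-52284892, minus strand): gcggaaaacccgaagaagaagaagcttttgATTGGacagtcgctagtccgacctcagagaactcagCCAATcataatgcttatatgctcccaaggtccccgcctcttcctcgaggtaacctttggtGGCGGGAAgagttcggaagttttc
CDC6 (chr17:40287729-40287878, plus strand): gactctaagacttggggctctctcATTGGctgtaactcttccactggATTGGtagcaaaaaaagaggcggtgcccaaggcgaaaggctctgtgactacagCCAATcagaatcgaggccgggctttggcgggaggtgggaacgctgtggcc
The CHR letters begin 23 bases before the start in BUB1B and 29 bases before it in CCNB2, which also shows 3 CCAAT boxes here. MKI67 has them in 2 places, 47 and 29 bases before the start, and CCNA2 has none of the CHR letters searched in its window. MCM6 holds E2F words in 2 overlapping pairs, each of TTTGGCGC on the strand of the gene and TTTCGCGC on the other, and the outer pair begins before the bases printed. In CDC6 the searched E2F word that was found lies just past the start, with its first base at position 8, and is not in the bases printed. A match is a description of letters only, and none of these data measure binding. Forms of the elements other than the searched words were not counted, here or in the shares above.

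The 36 genes spanned a wide range of levels in untreated cells. Per kilobase of exon, the highest mean levels in C were those of PCNA, the sliding clamp of DNA polymerases, at 281 ± 82.4 CPM per kilobase (SD, n = 3), and of UBE2C, an enzyme of the anaphase-promoting pathway, at 278 ± 60.7, values that lie within their spread of each other. MCM7, a subunit of the replicative helicase, followed at 189 ± 10.1, and TOP2A, the topoisomerase that untangles chromosomes, at 170 ± 7.48. The lowest were CCNE1 at 6.32 ± 0.706 and CENPE, a kinetochore motor, at 6.28 ± 0.458, which also did not differ beyond their spread, and CCNE2 at 2.33 ± 0.268. CCNE1 and CCNE2 encode the E cyclins, which drive entry into S phase.

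Replicate number accounted for part of the spread. Of the 36 genes, 22 differed between replicate numbers in a model of group and number (edgeR, 2 degrees of freedom, adjusted p under 0.05), 8 of S phase and 14 of G2 and M, where 44.0% of all tested genes did. CDT1, a licensing factor, averaged 322 CPM over the 4 libraries numbered 2 and 205 and 228 CPM over those numbered 1 and 3 (edgeR adjusted p = 0.00301). PCNA averaged 363, 277 and 488 CPM over numbers 1, 2 and 3 (edgeR adjusted p = 6.48e-05). HMMR, a protein of the mitotic spindle, averaged 168, 150 and 112 CPM in the same order (edgeR adjusted p = 0.00295), and UBE2C averaged 310, 239 and 361 CPM (edgeR adjusted p = 0.000203). S phase and mitotic genes alike thus differed between numbers, in more than a single pattern: PCNA and UBE2C were lowest in number 2, and HMMR was lowest in number 3. The numbers pair libraries across groups, so values from a model with the number as a block are given wherever they change a result.

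**Figure D1:**
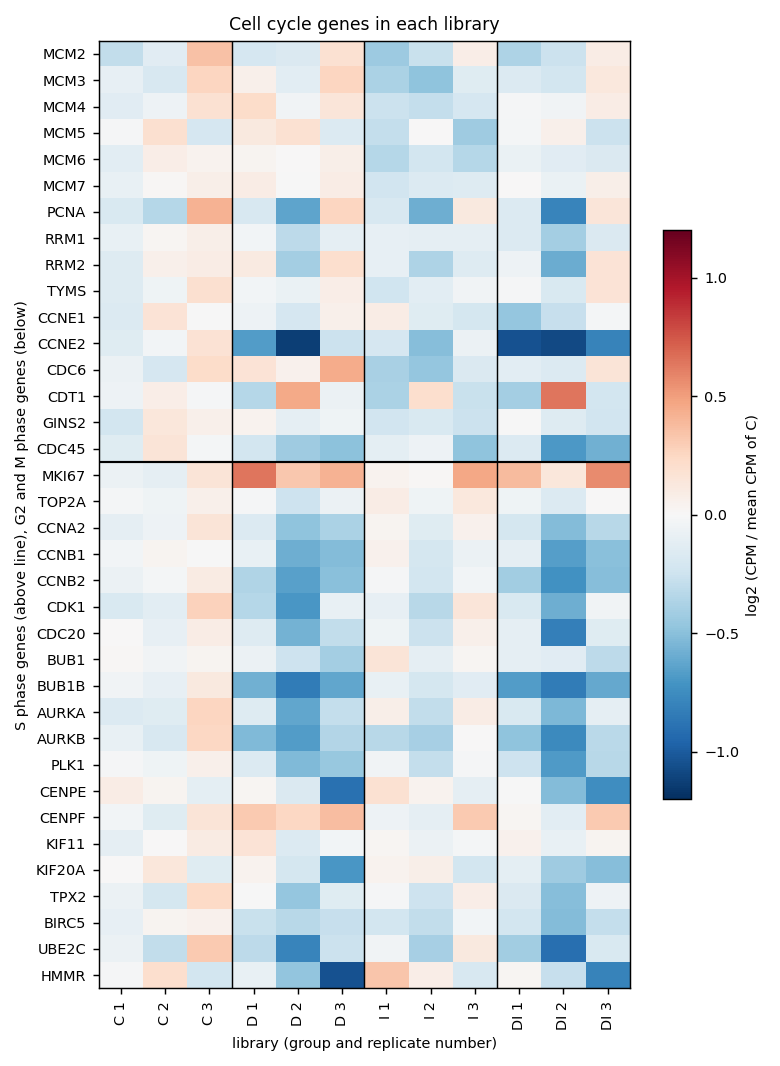
Level of each of the 36 genes (rows) in each of the 12 libraries (columns, group and replicate number), as log2 of CPM over the mean CPM of C, with red above and blue below that mean. S phase genes stand above the horizontal line. BUB1B and CCNB2 are blue in all 6 libraries with doxycycline, while MKI67 is red in all 6. The libraries of I lie on the same side of the mean of C for each of these genes.

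In cells that received no IFNγ, BUB1B was lower with doxycycline, and it was the only gene of the 36 that passed the test. Of the 36 genes, 1 was thus called in D against C, where 1.23% of all tested genes were called. The median log2 fold change was −0.33 over the 20 G2 and M genes, −0.01 over the 16 S phase genes and −0.001 over all tested genes, and 18 of the 20 G2 and M genes had a value below 0 against 9 of the 16 S phase genes. With library size alone as the scale, the S phase median was 0.08 and the median of all genes 0.09, so the sign of the S phase median depends on the scale. The 3 libraries of D lay wholly below the 3 of C for 11 of the 36 genes, 9 of them G2 and M, where 9.10% of all genes did, and wholly above for 2 genes, where 10.1% did. With the replicate block, 15 of the 36 were called, 12 lower and 3 higher (CDC6, MKI67 and CENPF), where 13.9% of all genes were called. These are bulk libraries, in which fewer cells in a phase and less mRNA per cell cannot be told apart.

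BUB1B encodes BubR1, a kinase-like protein of the spindle assembly checkpoint that holds back anaphase until chromosomes are attached. It was at 122, 102 and 118 CPM in D and 114, 102 and 119 in DI, against 177, 170 and 197 in C and 171, 157 and 166 in I. All 6 libraries with doxycycline were below all 6 without. BUB1B fell by 0.67 on the log2 scale in D against C (SE 0.10, edgeR adjusted p = 0.0137; 3 of 3 same-numbered pairs lower) and by 0.57 in DI against I (SE 0.10, edgeR adjusted p = 0.0336; 3 of 3 pairs lower). The exact permutation p was 0.1 for each, the smallest that 3 libraries against 3 can give. Without C replicate 3 the D against C value was −0.61 with an edgeR adjusted p of 0.0671, and leaving out any of the 6 libraries of I and DI in turn gave −0.51 to −0.61 in DI against I with edgeR adjusted p from 0.0887 to 0.14. BUB1, the related checkpoint kinase, was at 135, 130 and 137 CPM in C and at 128, 113 and 101 in D, without overlap, and its difference did not pass the test (−0.23, SE 0.11, edgeR adjusted p = 0.37).

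Averaged over the presence and absence of IFNγ, 4 of the 36 genes were lower with doxycycline and none was higher, where 7.68% of all tested genes were called in either direction. The 4 were BUB1B (−0.62, SE 0.07, edgeR adjusted p = 0.00103), CCNB2 (−0.48, SE 0.08, edgeR adjusted p = 0.00689), CCNA2 (−0.34, SE 0.09, edgeR adjusted p = 0.0386) and CCNE2 (−0.69, SE 0.16, edgeR adjusted p = 0.031). Library size alone as the scale gave 7 called genes, of which MCM4, MCM7, CDC6 and MKI67 were higher and BUB1B, CCNB2 and CCNE2 lower. On that scale 1681 of all tested genes were called, and the median of all genes was 0.088, against −0.002 with TMM. For 3 of the 36 genes (BUB1B, CCNB2 and CCNA2) the 6 libraries with doxycycline lay wholly below the 6 without, where 3.09% of all genes did so, and for 0 they lay wholly above, where 2.86% did. Leaving out any 1 of the 12 libraries kept BUB1B and CCNB2 called. CCNE2 lost its call in this test when any library other than D replicate 2, D replicate 3 or I replicate 2 was left out (edgeR adjusted p from 0.0503 to 0.0783), and CCNA2 lost its own when any other than D replicate 1, I replicate 2 or DI replicate 1 was (edgeR adjusted p from 0.0537 to 0.0937). With the replicate block 23 of the 36 were called, 18 lower and 5 higher (MCM3, MCM4, CDC6, MKI67 and CENPF), where 29.0% of all genes were called. By phase these were 18 of the 20 G2 and M genes, 16 of them lower, and 5 of the 16 S phase genes, 2 of them lower.

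Cyclins A2, B1 and B2 pair with CDK1, or CDK2 for cyclin A, to bring cells into mitosis. CCNB2 was at 171, 139 and 155 CPM in D and 164, 132 and 154 in DI, against 208, 216 and 234 in C and 217, 188 and 214 in I. Its differences within each IFNγ level did not pass the test without the block (D against C −0.50, edgeR adjusted p = 0.0653; DI against I −0.46, edgeR adjusted p = 0.114) and passed it with the block (edgeR adjusted p = 0.00283 and 0.00581). CCNA2 was at 208, 167 and 179 CPM in D and 201, 162 and 185 in DI, against 216, 223 and 260 in C and 239, 211 and 242 in I. The highest library with doxycycline, D replicate 1 at 208 CPM, lay just under the lowest without, I replicate 2 at 211 CPM. CCNA2 was not called within either IFNγ level without the block (edgeR adjusted p = 0.227 and 0.278) and was with it (edgeR adjusted p = 0.0301 and 0.0362). Its exons share 9.08% of their bases with EXOSC9 on the opposite strand, whose own mean doxycycline difference was 0.08 (SE 0.06). For CCNB1 the values were 295, 309 and 301 CPM in C and 283, 201 and 210 in D, and CDK1 overlapped between D and C (log2 fold changes −0.38 and −0.36, edgeR adjusted p = 0.311 and 0.462, and 0.0326 and 0.0181 with the block).

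**Figure D2:**
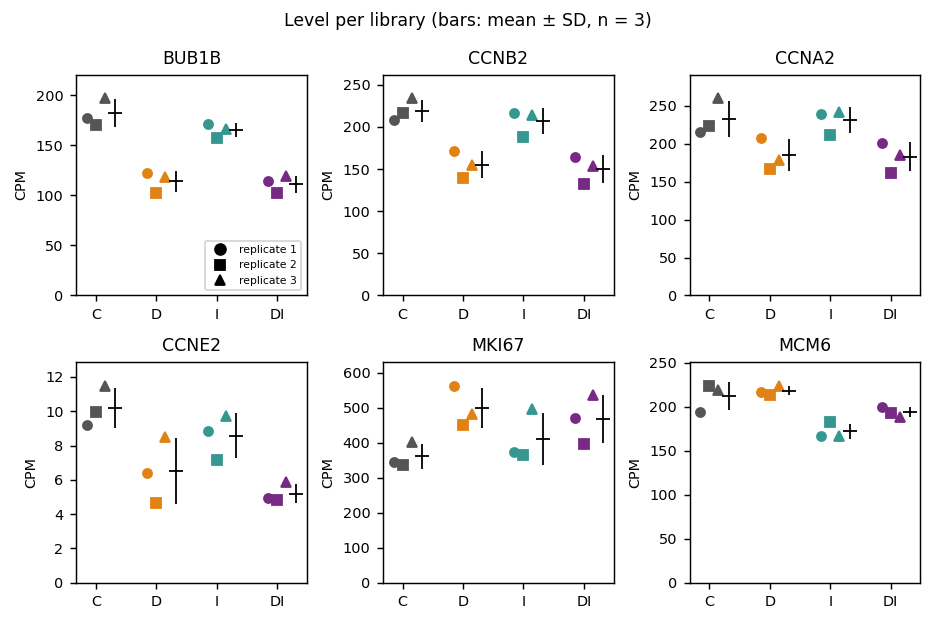
CPM (vertical axis, from 0) in each library of the 4 groups (horizontal axis), with marker shape for replicate number and a bar for mean ± SD (n = 3), for 6 of the genes. BUB1B, CCNB2 and CCNA2 show all libraries of D and DI below all of C and I, CCNE2 overlaps slightly, MKI67 is highest in D replicate 1, and MCM6 is lowest in I.

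The mitotic kinases AURKA, AURKB and PLK1 had values below 0 in D against C that passed the test with the block and not without it. AURKB, the kinase of the chromosomal passenger complex, was at 308, 286 and 388 CPM in C and 226, 206 and 257 in D, without overlap (−0.51, SE 0.16, edgeR adjusted p = 0.178; 0.00122 with the block), and at 260, 248 and 328 in I and 234, 193 and 262 in DI (−0.28, SE 0.16, edgeR adjusted p = 0.554; 0.0251 with the block). PLK1, which acts from mitotic entry to cytokinesis, was at 280, 217 and 229 CPM in D and 264, 196 and 250 in DI, against 311, 303 and 328 in C and 305, 257 and 311 in I (edgeR adjusted p = 0.23 in D against C and 0.414 in DI against I, or 0.0175 and 0.0521 with the block). BIRC5, or survivin, a partner of AURKB, was at 197, 188 and 196 CPM in D and 204, 165 and 195 in DI, against 222, 243 and 245 in C and 204, 193 and 232 in I. Its D against C value was −0.29 (SE 0.10, edgeR adjusted p = 0.225, or 0.0414 with the block). AURKA, the centrosomal kinase, overlapped between D and C (−0.34, SE 0.17, edgeR adjusted p = 0.42, or 0.0402 with the block).

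Genes of the anaphase-promoting pathway and of the spindle follow. UBE2C had a D against C value of −0.44 (SE 0.22, edgeR adjusted p = 0.421), and with the block its SE was 0.07 and its edgeR adjusted p 0.00504. In DI against I it had −0.37 (SE 0.22, edgeR adjusted p = 0.569, or 0.0109 with the block). HMMR had −0.48 (SE 0.26, edgeR adjusted p = 0.44), and 0.0214 with the block. CDC20, the activator of the anaphase-promoting complex, was without overlap lower in D (162, 150 and 171 CPM in C against 145, 109 and 131, edgeR adjusted p = 0.454 and 0.0585 with the block). KIF11, the motor that separates the spindle poles, stood at 262, 283 and 302 CPM in C and 315, 252 and 276 in D (−0.01, SE 0.10), and TOP2A had −0.10 (SE 0.09), the values nearest 0 among the 20 G2 and M genes. CENPE, KIF20A and TPX2 had values of −0.30, −0.26 and −0.19 in D against C and overlapped between the groups. With the block alone they were called lower for the mean doxycycline effect (edgeR adjusted p = 0.0112, 0.014 and 0.0318). The same held for CDC20 and BUB1 (edgeR adjusted p = 0.0131 and 0.0176 with the block).

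MKI67 and CENPF, large proteins of mitotic chromosomes and kinetochores, lay the other way. MKI67, which codes for the proliferation marker Ki-67, was at 345, 337 and 403 CPM in C and 564, 452 and 482 in D, without overlap (0.47, SE 0.15, edgeR adjusted p = 0.197; 0.0155 with the block). In I it was at 373, 365 and 498 CPM and in DI at 471, 398 and 536, which overlap (0.19, SE 0.15, edgeR adjusted p = 0.72). CENPF was at 397, 367 and 450 CPM in C and 503, 480 and 523 in D, without overlap (0.31, SE 0.14, edgeR adjusted p = 0.361; 0.0209 with the block), and the value in DI against I was 0.02 (SE 0.14). The 2 genes were the only G2 and M genes with a value above 0 in D against C.

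Among S phase genes, CCNE2 was the only gene called for the mean doxycycline effect. It was at 6.39, 4.66 and 8.51 CPM in D and 4.93, 4.82 and 5.86 in DI, against 9.22, 9.98 and 11.5 in C and 8.86, 7.14 and 9.70 in I. D lay below C and DI below I without overlap, but D replicate 3 lay above I replicate 2. The differences within each IFNγ level were −0.65 (SE 0.23, edgeR adjusted p = 0.224, or 0.0204 with the block) and −0.72 (SE 0.23, edgeR adjusted p = 0.23, or 0.0217 with the block). Of its exon bases 37.0% are shared with INTS8 on the opposite strand, which had 10263 counts in all against 1722 for CCNE2, and strandedness of the counting is not stated, so reads of the 2 genes may not be told apart. INTS8 itself had a mean doxycycline difference of −0.21 (SE 0.06, edgeR adjusted p = 0.07). CCNE1, the other E cyclin, overlapped between the groups (−0.07, SE 0.16 in D against C).

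The replication helicase and its loaders were mostly close to control in D. MCM2 to MCM7 form the helicase ring, and their D against C values ran from −0.06 to 0.11. CDC6, which loads the ring onto origins, was at 122, 113 and 148 CPM in D and 100, 97.6 and 121 in DI, against 104, 94.8 and 127 in C and 83.5, 79.2 and 96.8 in I. It was higher in D than in C in 3 of 3 same-numbered pairs (0.23, SE 0.15, edgeR adjusted p = 0.531, or 0.0272 with the block) and without overlap higher in DI than in I (0.30, SE 0.15, edgeR adjusted p = 0.46, or 0.0126 with the block). CDC45, which joins the ring to make the active helicase, lay the other way: it was at 73.8, 63.7 and 60.9 CPM in D and 76.5, 53.3 and 57.5 in DI, against 77.4, 95.3 and 84.5 in C and 78.8, 82.4 and 61.3 in I. Its values were −0.38 in D against C (SE 0.16, edgeR adjusted p = 0.321) and −0.25 in DI against I (SE 0.16, edgeR adjusted p = 0.613), and the mean effect was called with the block alone (edgeR adjusted p = 0.0303, against 0.123 without). RRM1, the large subunit of ribonucleotide reductase, was at 376, 309 and 358 CPM in D and 343, 290 and 341 in DI, against 361, 391 and 404 in C and 360, 357 and 358 in I. RRM1 overlapped between D and C (−0.15, SE 0.10) and lay wholly lower in DI than in I (−0.14, SE 0.10, edgeR adjusted p = 0.653).

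In cells that received IFNγ, the doxycycline comparison had the same single call. Of the 36 genes BUB1B was called in DI against I, where 0.670% of all tested genes were called, and with the block 8 were called, 6 lower and 2 higher, where 10.5% of all genes were. The 2 higher were MCM3 (0.25, SE 0.16, edgeR adjusted p = 0.584, or 0.0267 with the block) and CDC6. The median was −0.26 over the G2 and M genes, 0.11 over the S phase genes and −0.007 over all genes, and 11 of the 16 S phase genes had a value above 0. DI lay wholly below I for 5 of the 36 genes (CCNE2, RRM1, CCNA2, CCNB2 and BUB1B), where 8.41% of all genes did, and wholly above for 4 (MCM4, MCM6, MCM7 and CDC6), where 8.17% did. MCM4 was at 337, 329 and 349 CPM in I and 399, 390 and 428 in DI (0.26, SE 0.10, edgeR adjusted p = 0.335). MCM7 was at 704, 741 and 745 CPM in I and 832, 781 and 870 in DI (0.18, SE 0.08, edgeR adjusted p = 0.401). None of the differences of MCM4, MCM6 and MCM7 passed the test with or without the block. The other helicase subunits, MCM2, MCM3 and MCM5, overlapped between I and DI (0.03, 0.25 and 0.16).

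**Figure D3:**
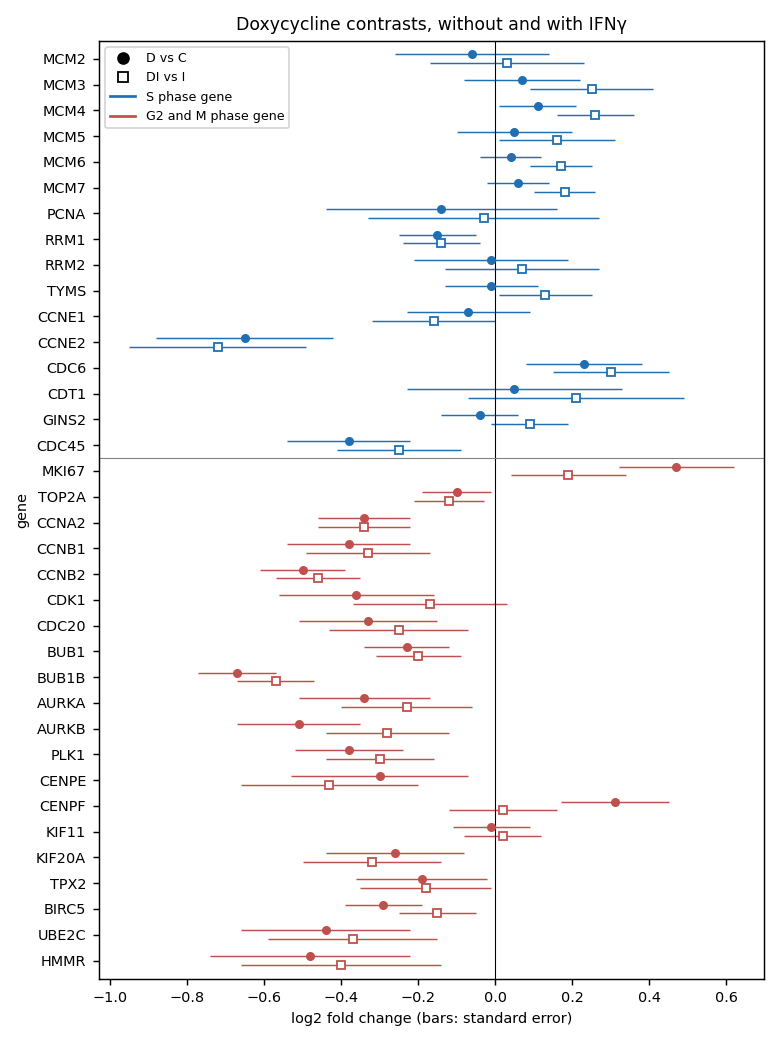
Log2 fold change (horizontal axis) with its standard error for each of the 36 genes (vertical axis), in D against C (filled circles) and DI against I (open squares), with S phase genes in blue and G2 and M genes in red. Most red points lie left of 0, CCNE2 and BUB1B lie farthest left, and MKI67 lies farthest right in D against C at 0.47.

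The doxycycline difference was also compared between cells with and without IFNγ. For none of the 36 genes did the interaction pass the test (0 called by edgeR, 0 at an unadjusted p under 0.05 and 0 by DESeq2), where 0% of all tested genes were called by edgeR with or without the block. With the block, 2 of the 36 had an unadjusted p under 0.05 in the interaction (AURKB and CENPF). Over all tested genes, 99 had an unadjusted p under 0.05 by edgeR without the block and 374 with it, and 1 was called by DESeq2. The largest interaction values were −0.29 (SE 0.20) for CENPF and −0.28 (SE 0.22) for MKI67, and 0.23 (SE 0.23) for AURKB. That for BUB1B was 0.11 (SE 0.14), and its differences at the 2 IFNγ levels were not told apart by this test.

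In cells without doxycycline, IFNγ was compared in I against C, where the S phase genes had values below 0 that did not pass the test without the block. In I against C, 0 of the 36 genes were called by edgeR and 4 had an unadjusted p under 0.05, all of S phase, and DESeq2 called 1 (MCM6), where 2.21% of all tested genes were called by edgeR. Of the 15828 tested genes, 1267 had an unadjusted p under 0.05 there, and DESeq2 called 530 genes. All 16 S phase genes had a value below 0, with a median of −0.21, against −0.045 over the G2 and M genes and −0.008 over all genes. With the block MCM3, MCM6 and CDC6 were called, all lower, where 6.02% of all genes were called. I lay wholly below C for 4 of the 36 genes (MCM4, MCM6, MCM7 and RRM1), where 6.24% of all genes did, and wholly above for 0, where 8.84% did.

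MCM6 was at 217, 213 and 223 CPM in D and 200, 193 and 188 in DI, against 194, 224 and 219 in C and 167, 182 and 167 in I. The 3 libraries of I were its 3 lowest. Its I against C value was −0.30 (SE 0.08, edgeR adjusted p = 0.13, or 0.0306 with the block), and with doxycycline, in DI against D, it was −0.17 (SE 0.08, edgeR adjusted p = 0.897, or 0.3 with the block). MCM3 was at 352, 329 and 450 CPM in C and 289, 270 and 340 in I, lower in 3 of 3 same-numbered pairs although the groups overlap (−0.33, SE 0.16, edgeR adjusted p = 0.673, or 0.00818 with the block). MCM4 stood at 366, 385 and 456 CPM in C and 467, 390 and 446 in D, with all 3 libraries of I below these (−0.25, SE 0.10, edgeR adjusted p = 0.523 in I against C). MCM7 stood at 780, 835 and 868 CPM in C and 883, 823 and 882 in D (I against C −0.18, SE 0.08, edgeR adjusted p = 0.596). For CDC6 the I against C value was −0.33 (SE 0.15, edgeR adjusted p = 0.607, or 0.00745 with the block).

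With doxycycline present, 0 of the 36 genes were called by edgeR in DI against D, 0 had an unadjusted p under 0.05 and DESeq2 called 0, where 1.72% of all genes were called by edgeR. Of the 15828 tested genes, 987 had an unadjusted p under 0.05 there, and DESeq2 called 405 genes. With the block 1 gene was called (CDC6, −0.26, SE 0.06, edgeR adjusted p = 0.0308), where 4.46% of all genes were. The mean IFNγ effect had 0 of 36 called by edgeR, 3 at an unadjusted p under 0.05 and 1 by DESeq2 (MCM6), where 3.81% of all genes were called by edgeR. Of the 15828 tested genes, 1851 had an unadjusted p under 0.05 for that effect, and DESeq2 called 853 genes. MCM6 was the nearest to the threshold (−0.23, SE 0.06, edgeR adjusted p = 0.054). With the block 4 were called (MCM3, MCM5, MCM6 and CDC6), all lower, where 10.9% of all genes were. For 0 of the 36 did the 6 libraries with IFNγ lie wholly below or wholly above the 6 without, where 0.392% and 2.98% of all genes did. The 20 G2 and M genes held no call under IFNγ with or without the block.

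**Figure D4:**
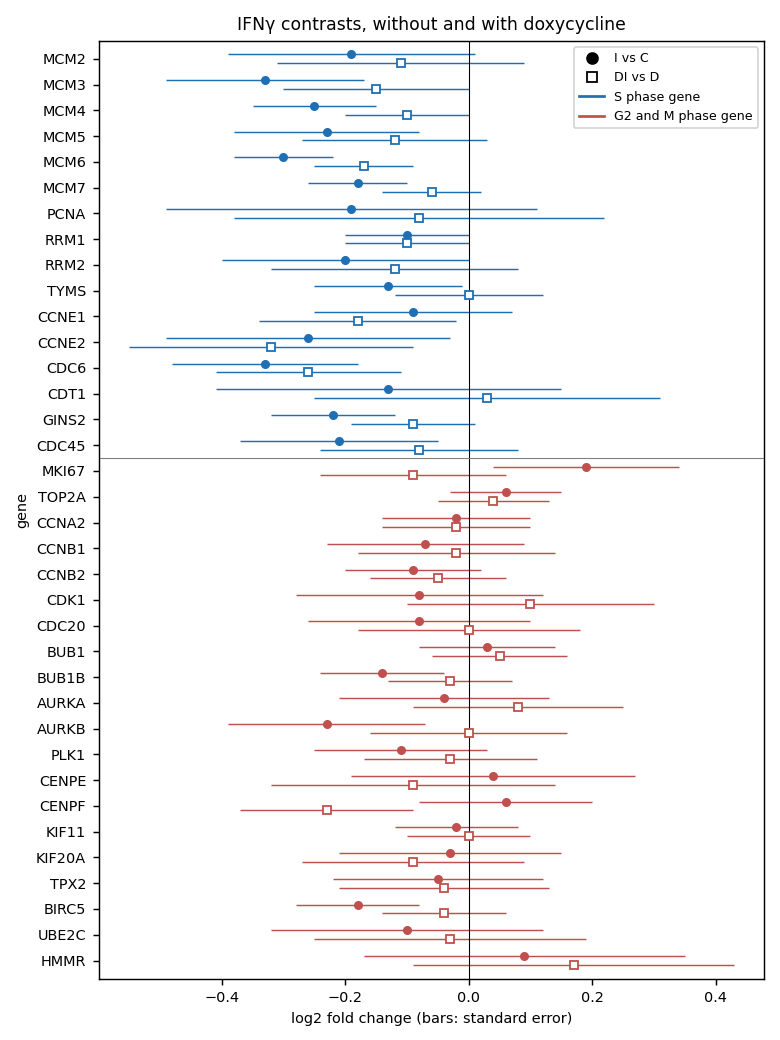
Log2 fold change (horizontal axis) with its standard error for each gene (vertical axis), in I against C (filled circles) and DI against D (open squares), with S phase genes in blue and G2 and M genes in red. All 16 blue circles lie left of 0, between −0.33 and −0.09, while the red points scatter on both sides.

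The balance of the phases was described for each library as the mean log2 CPM of the 16 S phase genes minus that of the 20 G2 and M genes. It was −0.584 ± 0.069 in C (SD, n = 3), −0.369 ± 0.160 in D, −0.753 ± 0.095 in I and −0.475 ± 0.132 in DI. Since the 2 means come from the same library, the scale of the library cancels. D exceeded C of the same number by 0.129, 0.172 and 0.346 for numbers 1, 2 and 3, and DI exceeded I by 0.198, 0.273 and 0.362, so the balance was higher with doxycycline in all 6 pairs. I differed from C by −0.159, −0.114 and −0.232 in the same order, and DI from D by −0.090, −0.014 and −0.215, so the balance was lower with IFNγ in all 6 pairs. By list, the G2 and M mean of D minus that of the same-numbered C was −0.053, −0.349 and −0.423, while the S phase mean gave 0.076, −0.176 and −0.077. For I minus C the S phase mean gave −0.102, −0.226 and −0.296, and the G2 and M mean 0.057, −0.112 and −0.064. No p is given for these means, because the genes were chosen with results of these data known.

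**Figure D5:**
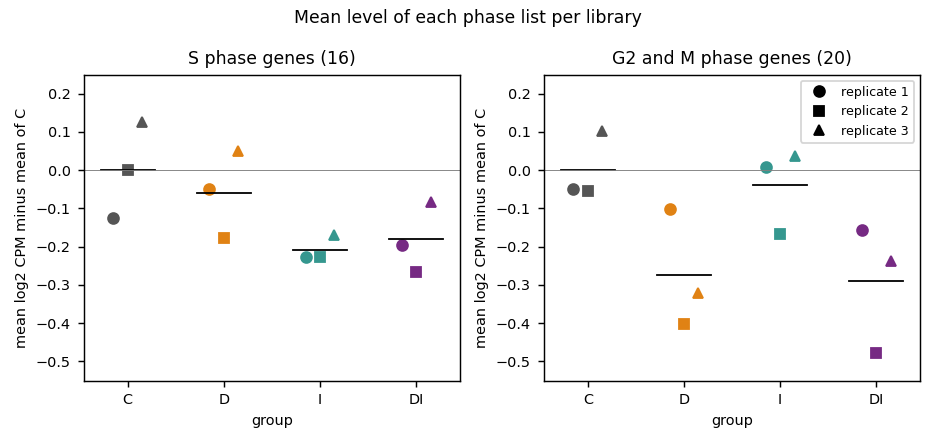
Mean log2 CPM of the S phase genes (left) and of the G2 and M genes (right) in each library, minus the mean of C (vertical axes), by group, with marker shape for replicate number and a line for the group mean. The S phase means of all 3 libraries of I lie below 0, between −0.228 and −0.169, and the G2 and M means of all libraries of D and DI lie below 0, between −0.477 and −0.101.

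Other genes of the cell cycle were taken from 9 lists that share no gene with the 36, and their counts for the mean doxycycline effect stand beside the 7.68% of all tested genes called, or 29.0% with the block. For that effect 3710 of the 15828 tested genes had an unadjusted p under 0.05. In the kinetochore and spindle checkpoint list, 5 of 28 genes were called for the mean doxycycline effect, 3 lower and 2 higher, including MAD2L1, a checkpoint partner of BubR1 (−0.57, SE 0.10, edgeR adjusted p = 0.00703), and NUF2, a subunit of the microtubule-binding NDC80 complex (−0.51, SE 0.09, edgeR adjusted p = 0.00937). SKA3, another kinetochore protein, was higher (0.36, SE 0.07, edgeR adjusted p = 0.0184). The median of that list was −0.08, and 12 of its genes were called with the block, 9 lower and 3 higher. In the list of spindle, kinesin and cytokinesis genes 3 of 23 were called, all lower: RACGAP1 (−0.77), a regulator of cytokinesis, KIF2C (−0.29), a microtubule-shortening kinesin, and DLGAP5 (−0.36), with edgeR adjusted p of 0.00196, 0.025 and 0.0257. The list median was −0.14, and 9 were called with the block, 8 of them lower. In the list of the anaphase-promoting complex 3 of 20 were called, all lower: its RING subunit ANAPC11 (−1.63), PTTG1, or securin (−0.65), and the activator FZR1 (−0.23), with edgeR adjusted p of 0.000207, 0.00273 and 0.0474. The list median was 0.05, and 6 were called with the block, 5 of them lower. ANAPC11 was at 55.3, 56.6 and 73.9 CPM in C and 18.7, 15.5 and 23.1 in D, and at 55.2, 47.5 and 69.4 in I and 19.5, 16 and 22.9 in DI. All 6 libraries with doxycycline lay below the other 6. It fell by 1.70 on the log2 scale in D against C (SE 0.21, edgeR adjusted p = 0.00453) and its value in DI against I was −1.56 (SE 0.21, edgeR adjusted p = 0.00678), each farther from 0 than that of any of the 36 genes. The condensin and cohesin list had 0 of 16 called by edgeR for the mean doxycycline effect, 3 at an unadjusted p under 0.05, a median of 0.08 and 5 called with the block. DESeq2 was not counted over these lists.

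In the list for origin licensing and DNA synthesis, 22 of 39 genes had a value above 0 for the mean doxycycline effect and 6 were called, all higher, where 7.68% of all genes were called in either direction. Among the 6 were POLE, the leading-strand polymerase (0.53, SE 0.09, edgeR adjusted p = 0.00663), POLD3 (0.41, SE 0.07, edgeR adjusted p = 0.00772) and ORC6, of the origin recognition complex (0.46, SE 0.09, edgeR adjusted p = 0.0134). POLE was at 280, 249 and 223 CPM in D and 250, 230 and 238 in DI, against 196, 177 and 153 in C and 181, 167 and 143 in I, with all 6 doxycycline libraries above the other 6. The median of the list was 0.05, against −0.002 over all genes, and 10 were called with the block, 8 higher and 2 lower, where 29.0% of all genes were. In the list of checkpoint and fork genes 2 of 18 were called: FANCD2 was higher (0.40, SE 0.07, edgeR adjusted p = 0.00697) and WEE1, the kinase that holds CDK1 inactive, was lower (−0.61, SE 0.08, edgeR adjusted p = 0.00196). Its median was 0.18, and 12 were called with the block, 8 of them higher. In the list of G1 cyclins and kinases 1 of 10 tested genes was called, CDC25A (0.45, edgeR adjusted p = 0.0333), and in the list of E2F, pocket proteins and MuvB 2 of 20 were called, E2F7 higher (0.55, edgeR adjusted p = 0.0493) and E2F5 lower (−0.75, edgeR adjusted p = 0.0083). With the block 5 of the 10 and 10 of the 20 were called, and the list medians were −0.05 and 0.11. Of the 7 CDK inhibitors 0 were called by edgeR for the mean doxycycline effect, 1 was at an unadjusted p under 0.05 and 5 were called with the block, with a list median of −0.27. The transcription factors of the mitotic wave, FOXM1 (0.08, SE 0.06) and MYBL2 (−0.14, SE 0.15), did not pass the test, nor did E2F1 (0.12, SE 0.09), CCND1 (−0.03, SE 0.09) or the CDK inhibitor CDKN1A (−0.80, SE 0.45, edgeR adjusted p = 0.317, or 0.0107 with the block).

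In I against C, where 2.21% of all tested genes were called, or 6.02% with the block, CDKN2A was the 1 of 7 CDK inhibitors called, at 35.5, 38.7 and 48.6 CPM in C and 78.6, 71.3 and 97.3 in I (1.01, SE 0.17, edgeR adjusted p = 0.00709). Its level in D was 34.1, 32.6 and 36.7 CPM and in DI 73.3, 53.3 and 76.3 (0.97, SE 0.17, edgeR adjusted p = 0.0118), so the libraries with IFNγ lay above those without at both levels of doxycycline. RMI2, of a complex that dissolves crossed DNA strands, was called higher in I against C (0.85, SE 0.19, edgeR adjusted p = 0.0487). E2F1 had a mean IFNγ difference of −0.29 (SE 0.09, edgeR adjusted p = 0.168, or 0.00259 with the block). In the licensing and synthesis list 36 of 39 genes had a value below 0 in I against C, with a median of −0.15 against −0.008 over all genes. Of the list 0 were called by edgeR, with 1 called with the block and 4 at an unadjusted p under 0.05, where 1267 of the 15828 tested genes were.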

How the data were processed

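Total RNA of 12 SK-N-DZ libraries (paired reads of 150 bases per the labels) was summarized by the authors as raw counts per gene, deposited for 43769 genes. The aligner, counting tool and build are not given in the sources used here, nor is the strandedness. All 43769 identifiers occur in GENCODE 29 (GRCh38), which gave exon lengths and overlapping genes. The authors also deposited 3 tables of their own comparisons, with log2 fold changes, p-values and adjusted p-values, and these were not used. They hold 18 columns whose names no label explains, also not used.

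Groups come from the sample titles. Genes were filtered with filterByExpr (minimum count 10), scaled by TMM and fitted in 1 quasi-likelihood fit with a mean for each group, in R 4.3.3 with edgeR 4.0.16 and limma 3.58.1. Tests were two-sided with Benjamini-Hochberg adjustment over 15828 genes, and a gene was called at an adjusted p under 0.05. Means over the other agent, and the interaction, came from the same model. Exact permutation tests over 3 against 3 libraries cannot go below 0.1. CPM is the count per 1000000 of the TMM-scaled library size, and 3 counts equal 0.135 to 0.187 CPM. Nothing states that replicates were separate cultures, so p-values measure the spread between libraries, which may be technical. Replicates of a group differed by more than counting noise (chi-square per gene of 14.3 to 59.5, where counting noise alone would give about 1).

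The labels share replicate numbers across groups. Deviations from the group means, over genes, correlated at 0.338 to 0.804 in the 18 library pairs that share a number and at −0.628 to 0.143 in the 36 pairs that do not, so the numbers were taken to pair the libraries. The model in the text has no block, and the block is an alternative.

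The 36 genes and all lists were chosen with earlier results of these data known. Given in every library were, for D vs C, DI vs I, I vs C and the mean doxycycline effect, the 4 genes of each phase with the smallest p, and every called gene. From each list up to 3 called genes per contrast were named, and always CDKN1A, CCND1, E2F1, FOXM1, MYBL2 and ARID1A. Other genes were named after their values were seen. Alternatives were the replicate block, DESeq2's size factors, library size alone, no filter, DESeq2 1.42.0's Wald test, a fit of only the 6 libraries compared, and leaving out each library. Promoters were searched with Python 3.11.15, and the code was tested on simulated data. Pseudogene copies of the 36 genes held at most 0.0558% of a gene's counts.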

Additional observations from a re-analysis of the deposited data

How the results depend on the processing

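With the replicate number as a block the number of the 36 genes called went from 1 to 15 in D vs C, from 1 to 8 in DI vs I, from 0 to 3 in I vs C, from 0 to 1 in DI vs D, from 4 to 23 for the mean doxycycline effect and from 0 to 4 for the mean IFNγ effect. Among the calls that the block gained, for these and other genes, were those of ARID1A (edgeR adjusted p from 0.0606 to 0.00858) and PLK1 (from 0.0583 to 0.00265) for the mean doxycycline effect and of E2F1 in I vs C (from 0.401 to 0.00992). By DESeq2's Wald test the numbers were 2 for each doxycycline comparison of 3 libraries against 3, 1 in I vs C, 7 for the mean doxycycline effect and 1 for the mean IFNγ effect. Over all genes it called 644 in D vs C, 452 in DI vs I, 530 in I vs C, 1996 for mean doxycycline and 853 for mean IFNγ. With library size alone the numbers of the 36 were 0 in DI vs I, 7 for mean doxycycline (4 higher) and 1 for mean IFNγ, where 119, 1681 and 596 of all genes were called. On that scale the medians in DI vs I were 0.203 over S phase genes and −0.169 over G2 and M genes, beside a shift of 0.09 in the median of all genes. With no filter the numbers of the 36 were 0 in DI vs I and 2 for mean doxycycline, where 84 and 752 of all genes were called. With the 6 compared libraries alone they were 0 in D vs C, where 16 of all genes were called. In DI vs I they were 0 as well, where 0 of all genes were called. Fewer libraries estimate the spread in these fits. DESeq2's size factors changed no count. Leaving out 1 library gave 0 to 1 in D vs C (0 without C replicate 3), 0 in DI vs I whichever of its 6 libraries was left out, 2 to 5 for mean doxycycline (5 without D replicate 1, 2 without each of the 3 libraries of C, I replicate 1, DI replicate 2 or DI replicate 3) and 0 to 1 for mean IFNγ (1 without C replicate 1). Without I replicate 3 the mean doxycycline effect had 3 calls, of which 2 were lower. Calls over all genes were not counted for these fits. A general loss of calls was thus not told apart from a loss among the 36. The G2 and M median in DI vs I ran from −0.335 to −0.173, nearest to 0 without DI replicate 2 and without I replicate 3. Of 184 values of named genes with every library kept, 157 kept direction and side of the threshold, 7 lost the call, 20 gained it and 0 reversed. Of 240 with 1 library left out, 214 kept both, 25 lost the call, 1 gained it and 0 reversed. Except where stated, the cause was not tested. Each of the 36 genes had at least 90 counts in every library, and groups of 3 libraries limit the precision.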

Other observations

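Genes of the p53 response were taken as a further list of 22 genes. For the mean doxycycline effect 2 were called, both higher, where 7.68% of all tested genes were called. SESN2, a stress-induced regulator of mTORC1, was at 44.6, 25.9 and 93.9 CPM in D and 46.2, 26.9 and 67.9 in DI, against 16.1, 13.4 and 11.3 in C and 14.2, 15.9 and 10.4 in I (1.91, SE 0.32, edgeR adjusted p = 0.00678). GDF15, a secreted stress protein, was at 2.57, 0.776 and 9.21 CPM in D and 4.21, 0.513 and 4.86 in DI, against 0.184, 0.447 and 0.312 in C and 0.841, 0.436 and 0.262 in I (3.15, SE 0.70, edgeR adjusted p = 0.0234), with D replicate 2 and DI replicate 2 inside the range of the libraries without doxycycline and C replicate 1 at the level of 3 counts. Both were lowest in replicate 2 among the libraries with doxycycline. The median of the list was 0.03, against −0.002 over all genes, and 7 were called with the block, 4 of them higher, where 29.0% of all genes were. CDKN1A had a value of −0.80 in the other direction and was called with the block alone (edgeR adjusted p = 0.317, or 0.0107 with the block). For the mean IFNγ effect, where 3.81% of all genes were called, 1 of the 22 was, FAS, a death receptor (2.98, SE 0.54, edgeR adjusted p = 0.00771). FAS was at 0.738, 0.149 and 0.81 CPM in C and 0.906, 0.103 and 1.45 in D, against 5.99, 4.42 and 5.35 in I and 6.62, 2.92 and 6.8 in DI. C replicate 2 was at the level of 3 counts and D replicate 2 below it. With the block 3 of the 22 were called for that effect, all higher, where 10.9% of all genes were.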
